A study of Homo sapiens with 9 samples.

Results

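RNA of cells labelled TRAP-1 overexpression (OE) was compared with RNA of the parental cells over all 22290 genes of the deposited table. The comparison used the 3 columns named OE and the 3 named PAR, which are 6 of the 9 libraries of the series. The other 3 libraries come from cells labelled TRAP-1 knockdown (KD) and serve to show which changes are particular to the cells labelled OE. All cells are named as IMR-32, an established human line from neuroblastoma, a tumor of the sympathetic nervous system. TRAP-1 is the mitochondrial relative of the chaperone Hsp90. The engineered cells had been made in earlier work, and their vector and selection are not given in the sources used here. The cells were grown in flasks to 60% confluence, and no treatment is named for any group. Each label stands for 1 line sequenced in 3 libraries, so an effect of TRAP-1 and any other difference between the lines cannot be told apart, and the adjusted p-values measure spread between libraries of 1 line.

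The authors deposited rlog values, which are counts on the log2 scale after scaling for library size and shrinkage toward the mean of each gene. A difference of 1 is a doubling of the shrunken value, and differences of genes with few reads are understated most. The number of reads per library is unknown from such values. On the linear scale each library summed to a similar total, from 34928732 to 35211774. A gene was called when its adjusted p from limma was under 0.05 over all 22290 genes.

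The energy pathways are left aside here, and the account follows secreted, adhesion, growth factor and translation genes. As background, cells short of oxygen stabilise the hypoxia-inducible factors, which bind short sequences near genes for pH control, collagen folding, mitochondrial removal and secreted signals. Tumor cells also secrete a matrix of collagens, proteoglycans and glycoproteins, which they grip through integrins, and release growth factors of the EGF, FGF, TGF-beta and WNT families. Ribosomal proteins are made from some of the most abundant mRNAs of a growing cell, and a separate set of nucleolar factors assembles them into ribosomes.

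The label was checked against the RNA of its gene first. TRAP1 (ENSG00000126602, chr16:3651639-3717553 of GRCh38, minus strand) read 10.67, 10.66 and 10.65 in the parental libraries and 10.67, 10.63 and 10.74 in the libraries labelled OE. The ranges overlapped, and the difference of 0.018 was not called (95% confidence interval -0.033 to 0.069, adjusted p = 0.643). In the libraries labelled KD it read 10.79, 10.79 and 10.83, above every parental library and every library labelled OE. Both tests against KD were called, with 0.14 between KD and parental (adjusted p = 1.8e-05) and -0.12 between OE and KD (adjusted p = 1.5e-04). Other annotated genes share 28.5% of the exonic bases of TRAP1. When the median difference of each 20-Mb block of the genome was removed, the difference between libraries labelled OE and parental became 0.060 and was called (adjusted p = 0.0496), and that between OE and KD became -0.071. The data as deposited thus show neither more TRAP1 RNA under the overexpression label nor less under the knockdown label, and OE and KD stand below for the labels of the libraries.

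The markers of the cell type were looked at next, and part of them went against the label of neuroblastoma. Of 25 markers of adrenergic neuroblastoma cells, 18 had values and 11 of these had a parental mean rlog value under 5. MYCN, the transcription factor amplified in many neuroblastomas, had a parental mean of only 2.52, TH, the first enzyme of catecholamine synthesis, 2.84, and CHGA, a protein of secretory granules, 4.07. HAND1, DBH, DDC, STMN2, ELAVL4 and RET were not analysed here. The transcription factor TFAP2B was the most abundant of the list, with a parental mean of 13.67, while ISL1 had 9.37, GATA2 9.27 and the receptor kinase ALK 8.61. Summed on the linear scale, the adrenergic list came to 14997, 15019 and 15191 in the parental libraries and to 17287, 17683 and 17649 in those labelled OE. TFAP2B makes up most of this sum and was the only member called higher, while 3 members were called lower. All 12 mesenchymal markers had values, 8 of them with a parental mean of at least 10. VIM was the most abundant. The list summed to between 153683 and 154468 in the parental libraries and to between 164388 and 165715 in those labelled OE. Of its members, 6 were called higher and 5 lower. For these counts and those of the next paragraph, the shares over all protein-coding genes were 20.8% higher and 24.1% lower.

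Lists of markers of other cell types were summed in the same way, and each sum rests on few genes. The epithelial list (12 of 16 markers with values, KRT18 most abundant) summed to 6121, 6143 and 6069 in the parental libraries and to 5587, 5545 and 5613 in those labelled OE, with 1 member called higher and 3 lower. The squamous list (5 of 7, KRT14 most abundant) went from between 217 and 229 to between 160 and 170, with 0 and 2 called. For the Schwann cell and melanocyte list (5 of 8, S100B most abundant) the sums were 4938 to 5048 and 5988 to 6096, with 4 and 0 called. The endothelial list (5 of 5, PECAM1 most abundant) gave 1023 to 1044 and 746 to 818, with 0 and 2 called. Fibroblast markers (7 of 8, PDGFRB most abundant) summed to 434 to 463 and to 469 to 489, with 1 and 0 called. Of blood and hepatocyte markers 1 of 5 and 1 of 4 had values, and these lists summed to 6 and 5 in every library. In bulk RNA, fewer cells of a kind and less RNA per cell cannot be told apart, and the part of these shifts in the results was not tested.

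The test called 7764 of the 22290 genes, with 3762 (16.9%) higher in the libraries labelled OE and 4002 (18.0%) lower. Among the 14697 protein-coding genes the shares were 20.8% higher and 24.1% lower, and these are the background for the gene lists that follow. Most changes were small, with a median size of 0.13 among called genes. The difference was over 0.5 in 129 called genes in the upward direction and in 71 downward. The 15 largest increases among called genes whose groups did not overlap held the protease inhibitor A2M, the surface carbonic anhydrase CA9, the proteoglycan BGN, the surface-anchored neuritin NRN1, the proteoglycan-cleaving ADAMTS4, the collagen-cleaving cathepsin CTSK, the lipid transporters ABCA8 and ABCB4, the dystrophin-complex protein SGCD and the translation factor EEF1A2. PPFIA4, a liprin of synapses, and the noncoding microRNA host gene MIR210HG were among them too, with TMEM45A, C4orf47 and C14orf132. The 15 largest decreases held LYPD3, the EGF-receptor ligand AREG, WNT9A, the Notch ligand JAG1, the kindlins FERMT1 and FERMT3, the VEGF receptor KDR, the junction protein AJAP1, the keratin KRT6B and the calcium channel subunit CACNA2D1. The other decreases were those of the kinase MAST4, of NDN and of the noncoding GGT4P, LINC01151 and UBBP4, the last sharing 100% of its exonic bases with other genes.

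**Figure D1:**
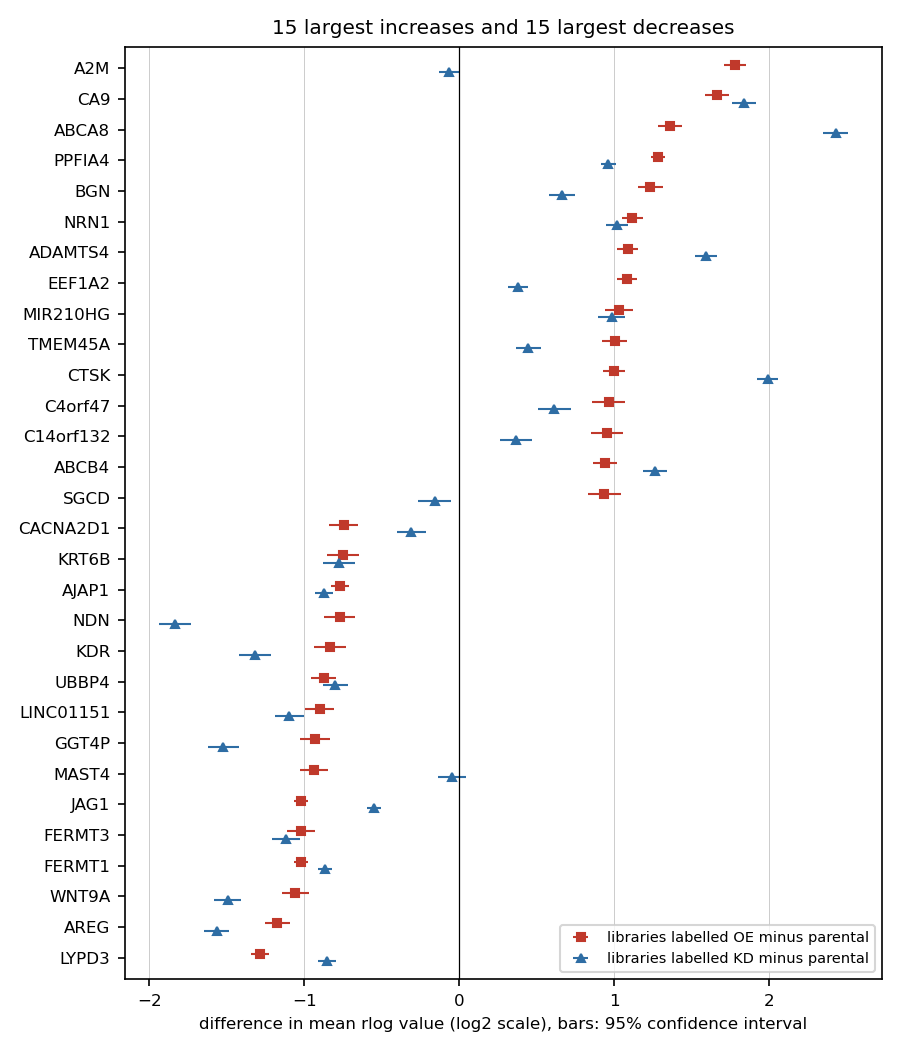
Difference in mean rlog value (log2 scale) for the 15 largest increases and the 15 largest decreases between libraries labelled OE and parental, with the difference of libraries labelled KD from the same parental libraries beside it. A2M and SGCD are high only in the libraries labelled OE, and MAST4 is low only in them.

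The list with the largest median difference was that of genes induced by hypoxia, taken here without the glycolytic enzymes. Of 37 members with values, 27 were called higher and 2 lower, with a median difference of 0.33 against 0.00039 over all genes. In 26 members every library labelled OE exceeded every parental library, an arrangement found upward in 24.8% and downward in 28.3% of protein-coding genes. In the comparison of libraries labelled KD with the same parental libraries, 23 members were called higher and 5 lower (background 29.8% and 34.2%). In the direct test of OE against KD, 22 were higher and 4 lower in OE (background 29.9% and 27.5%). The OE and KD comparisons share the parental libraries, so their values are set side by side, and only the test of OE against KD compares them.

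Because these genes moved together, the 250 bases before their start sites are shown for 4 of them, as RefSeq lists them for GRCh38.p14. Capitals mark the core of the hypoxia response element, ACGTG or GCGTG, searched on both strands. The palindrome CACGTG holds ACGTG on both strands. The CA9 stretch is chr9:35673678-35673927 (plus strand), that of PPFIA4 chr1:203026241-203026490 (plus strand), that of BNIP3 chr10:131981924-131982173 (minus strand) and that of P4HA1 chr10:73096867-73097116 (minus strand). The outermost starts that GENCODE gives for BNIP3 and P4HA1 lie inside these stretches. BNIP3, a mitochondrial protein of mitophagy, was chosen for printing after its values were seen.
CA9: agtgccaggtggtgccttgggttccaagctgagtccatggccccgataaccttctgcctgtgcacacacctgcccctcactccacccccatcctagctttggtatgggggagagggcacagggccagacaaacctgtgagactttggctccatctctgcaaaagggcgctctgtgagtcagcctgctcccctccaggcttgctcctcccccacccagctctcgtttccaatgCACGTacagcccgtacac
PPFIA4: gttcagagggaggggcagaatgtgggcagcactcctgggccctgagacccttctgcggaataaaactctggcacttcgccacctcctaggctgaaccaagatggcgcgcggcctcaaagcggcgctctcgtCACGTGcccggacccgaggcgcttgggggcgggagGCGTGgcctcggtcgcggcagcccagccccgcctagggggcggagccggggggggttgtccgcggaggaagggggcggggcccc
BNIP3: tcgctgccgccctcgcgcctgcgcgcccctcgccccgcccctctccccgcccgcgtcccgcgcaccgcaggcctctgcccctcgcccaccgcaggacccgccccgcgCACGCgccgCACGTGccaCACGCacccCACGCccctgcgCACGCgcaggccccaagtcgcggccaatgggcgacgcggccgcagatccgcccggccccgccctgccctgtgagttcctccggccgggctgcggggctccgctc
P4HA1: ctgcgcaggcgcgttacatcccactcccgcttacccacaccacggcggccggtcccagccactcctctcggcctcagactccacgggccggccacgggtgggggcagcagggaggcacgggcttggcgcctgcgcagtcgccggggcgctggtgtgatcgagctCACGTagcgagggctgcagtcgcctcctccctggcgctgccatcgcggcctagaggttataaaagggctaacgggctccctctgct

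The core occurs 1 time before CA9, with 13 bases between it and the start site. It occurs 3 times before PPFIA4, 6 times before BNIP3 and 1 time before the RefSeq start of P4HA1. The core of P4HA1 lies downstream of the outermost GENCODE start of that gene. Such a short motif is common, and 4574 of 8204 protein-coding genes with values and a single listed start site hold it in this window (55.8%). It was found in 18 of 24 hypoxia-induced genes (75%) and in 15 of the 18 of them that were called higher (83.3%). Among chemokines and cytokines it was found in 3 of 16 (18.8%). A match is a description of letters and not a binding site.

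CA9 (ENSG00000107159, chr9:35673928-35681159), which makes bicarbonate and protons at the cell surface, read 7.04, 6.99 and 7.06 in the parental libraries and 8.70, 8.71 and 8.67 in those labelled OE. The difference was 1.66 (standard error 0.038, adjusted p = 1.3e-25). In the libraries labelled KD, CA9 read 8.80, 8.91 and 8.90, and OE minus KD was -0.18, or -0.068 and not called with block medians removed. Other genes share 35.7% of its exonic bases. PPFIA4 (ENSG00000143847, chr1:203026491-203078740) read 9.79, 9.79 and 9.76 in the parental libraries and 11.05, 11.07 and 11.07 in those labelled OE. Its difference of 1.28 (standard error 0.023, adjusted p = 8.1e-28) was above that of the libraries labelled KD, 0.96, and the direct test called the gap of 0.32 (adjusted p = 1.8e-13). For NRN1 (ENSG00000124785, chr6:5997999-6007605), which promotes neurite growth, the values were 8.02, 8.11 and 8.02 in parental and 9.17, 9.16 and 9.17 in libraries labelled OE. It rose by 1.12 in OE and by 1.02 in KD.

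TMEM45A, a membrane protein induced by hypoxia, went from 7.47, 7.45 and 7.38 to 8.44, 8.48 and 8.39. Its difference was 1.002 in OE and 0.44 in KD. BNIP3 (ENSG00000176171, chr10:131967684-131981967) read 12.11, 12.12 and 12.13 in parental and 12.96, 12.95 and 12.95 in libraries labelled OE, a difference of 0.83, and has 44 annotated pseudogenes. P4HA1 (ENSG00000122884, chr10:73007217-73096974), the catalytic subunit of collagen prolyl hydroxylase, read 11.35, 11.41 and 11.40 and then 11.87, 11.84 and 11.86. That rise of 0.47 (adjusted p = 7.8e-19) stood beside 0.50 in KD, and OE and KD were not called apart except with block medians removed (-0.056). ANGPTL4, a secreted inhibitor of lipoprotein lipase, differed from this. It rose by 0.54 in OE and stood 0.046 from parental in KD, and OE was above KD by 0.49 (adjusted p = 3.1e-19). Of the whole list, 19 members were apart in OE upward and 0 downward (6.97% and 7.0% of protein-coding genes), by the definition given with the genes particular to the line.

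**Figure D2:**
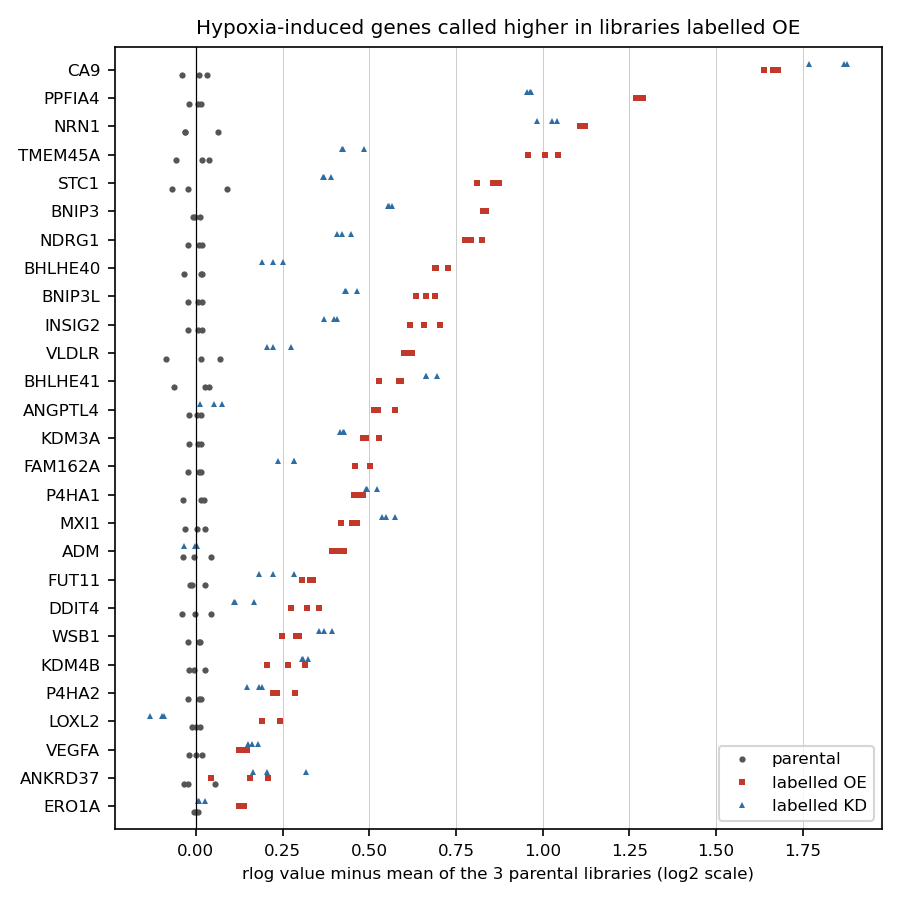
Change in rlog value (log2 scale) from the parental mean, in each of the 9 libraries, for the 27 hypoxia-induced genes called higher in libraries labelled OE. The libraries labelled OE and KD both lie above parental for CA9, PPFIA4, NRN1 and TMEM45A.

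Genes of the extracellular matrix moved in both directions. Of 41 collagens, 17 were called higher and 10 lower, and the median difference from parental was 0.033. Medians in brackets after other lists are the same measure, given only where it stayed within 1.5 times under other scalings and with block medians removed. Matrix glycoproteins had 14 higher and 6 lower of 42 (median 0.028), proteoglycans 10 and 8 of 27, laminins 5 and 4 of 12, and enzymes that modify the matrix 7 and 3 of 16. BGN (ENSG00000182492, chrX:153494980-153509546), a small leucine-rich proteoglycan that binds collagen, read 7.23, 7.23 and 7.27 in the parental libraries and 8.48, 8.46 and 8.49 in those labelled OE. The difference was 1.23 (standard error 0.040, adjusted p = 1.1e-21) against 0.66 in KD. VCAN, a large proteoglycan of loose matrix, rose by 0.64 and SRGN, a proteoglycan of secretory granules, by 0.42, while GPC4, a membrane-anchored glypican, had a difference of -0.43.

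Tested directly against KD, 20 collagens were higher and 10 lower in OE, against 29.9% and 27.5% of protein-coding genes. COL11A1 (ENSG00000060718, chr1:102876467-103108872), a chain that limits the width of fibrils, read 6.58, 6.56 and 6.69 in parental, 7.30, 7.30 and 7.31 in OE and 6.35, 6.32 and 6.36 in KD. It was up by 0.69 in OE and at -0.27 in KD. COL5A2, a chain of fibril cores, split in the same way, 0.41 against -0.49. COL8A1, of short-chain sheets, rose by 0.65 in OE and 0.38 in KD. The microfibril chain COL6A3 was the largest decrease of the family at -0.73, beside -1.24 in KD. FN1 (ENSG00000115414, chr2:215360440-215436073), fibronectin, the main ligand of many integrins, read 13.98, 13.97 and 13.97 in parental, 14.51, 14.52 and 14.52 in OE and 13.01, 13.02 and 12.997 in KD. The 3 groups were fully separate, and the test of OE against KD gave 1.51 (standard error 0.012, adjusted p = 3.3e-38).

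Other matrix genes rose in both engineered lines. EMILIN1, an elastic-fibre glycoprotein, was higher by 0.60 in OE and 1.58 in KD, and EFEMP2, a fibulin of elastic fibres, by 0.67 and 0.91. LOXL4, a lysyl oxidase that cross-links collagen, read 13.91, 13.91 and 13.90 in parental and 14.49, 14.51 and 14.53 in libraries labelled OE. It rose by 0.60, less than in KD (1.35). PLOD2, a collagen lysyl hydroxylase, rose by 0.27. The crosslinking transglutaminase TGM2 was lower, at -0.49, and CCN2, a matricellular protein, at -0.56. Of the laminins, LAMA5 (0.30) and LAMA2 (0.34) were higher and the epithelial chain LAMB3 (-0.32) lower.

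Protease inhibitors had 9 members higher and 11 lower of 40, and metalloproteases 15 and 11 of 42. A2M (ENSG00000175899, chr12:9067664-9116229), alpha-2-macroglobulin, which traps proteases and also binds growth factors, read 8.76, 8.66 and 8.80 in parental, 10.52, 10.54 and 10.50 in OE and 8.73, 8.62 and 8.68 in KD. It was the largest increase of the comparison, with OE above KD by 1.84 (standard error 0.034, adjusted p = 7.0e-29). SERPINF1, a secreted antiangiogenic serpin, rose by 0.68 and SERPINA5 by 0.38, while the elastase inhibitor SERPINA1 was at -0.49. ADAMTS4 (ENSG00000158859, chr1:161184302-161199054), which cuts aggrecan, went from 8.43, 8.40 and 8.52 to 9.49, 9.57 and 9.55. That difference of 1.09 was smaller than the 1.59 of KD. ADAMTS2 (-0.46), which removes the ends of procollagen, ADAMTS15 (-0.45) and the gelatinase MMP9 (-0.63) were lower.

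**Figure D3:**
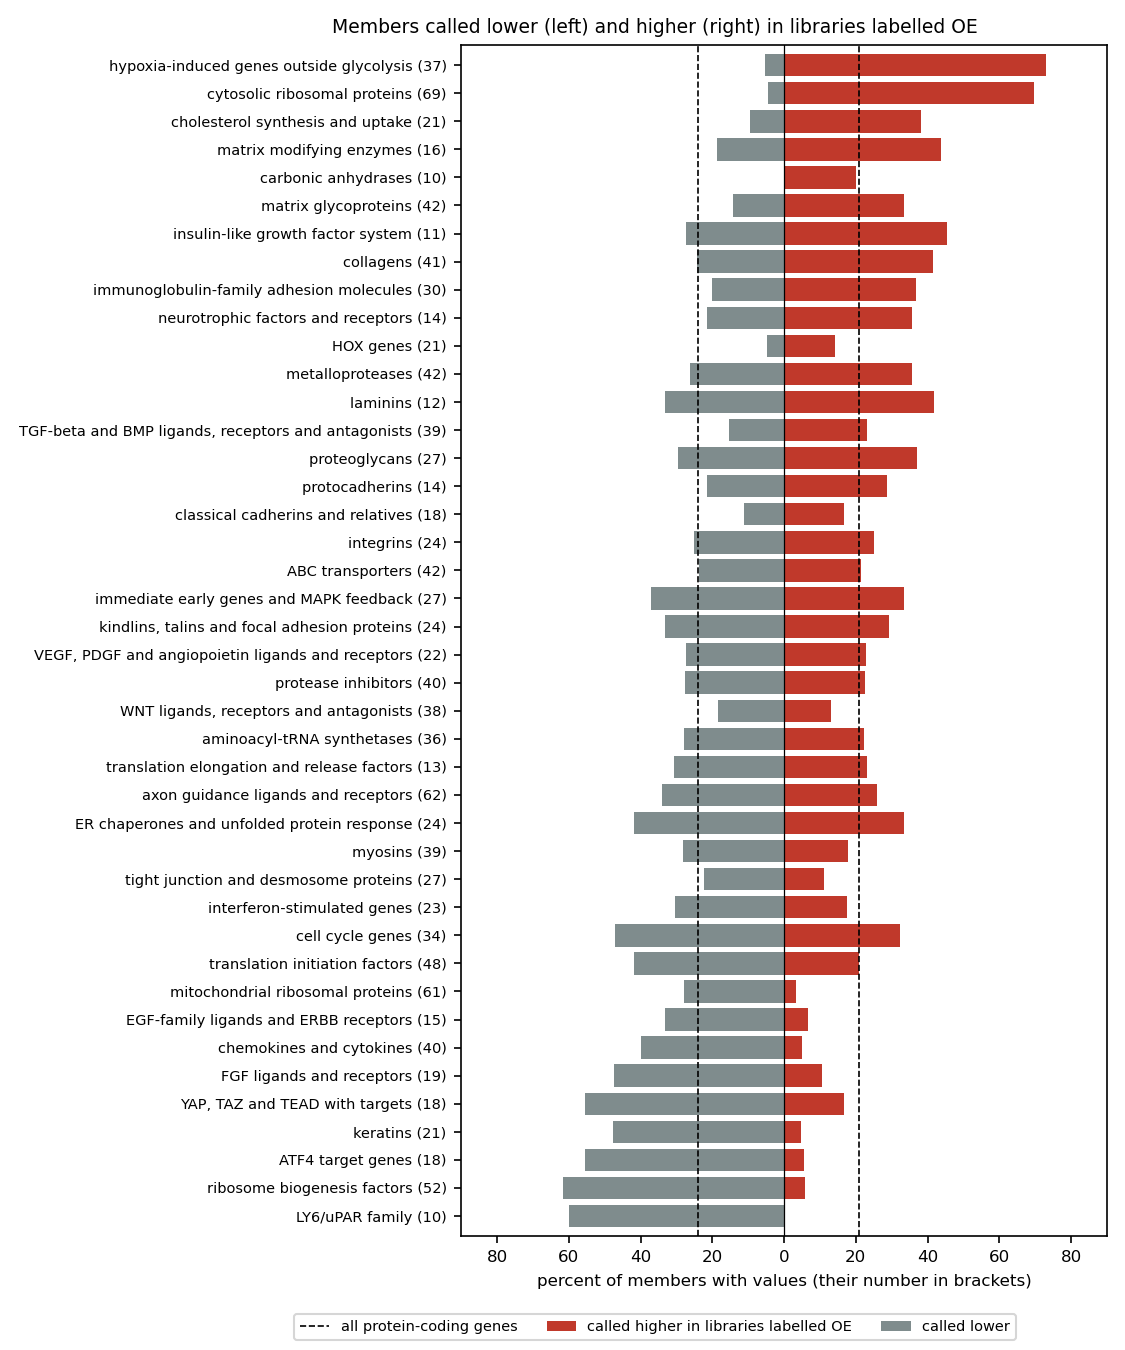
Percent of the members with values of each gene list shown that were called higher (right) or lower (left) between libraries labelled OE and parental, with the number of members in brackets and dashed lines at the shares of all protein-coding genes, 20.8% and 24.1%. Hypoxia-induced genes and cytosolic ribosomal proteins lie far to the right, and the LY6/uPAR family and ribosome biogenesis factors to the left.

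The family of EGF-receptor ligands and ERBB receptors had 1 member higher and 5 lower of 15, and with block medians removed 2 higher and 4 lower. AREG (ENSG00000109321, chr4:74445136-74455005), amphiregulin, a shed ligand of the EGF receptor, read 8.83, 8.90 and 8.86 in the parental libraries and 7.73, 7.64 and 7.70 in those labelled OE. The difference was -1.17 (standard error 0.040, adjusted p = 3.9e-21), beside -1.57 in KD. HBEGF, another shed ligand, went from 8.45, 8.60 and 8.53 to 7.97, 7.98 and 7.85, a difference of -0.59 beside -0.62 in KD. TGFA, a further ligand of the same receptor, was at -0.15 in OE and 0.29 in KD, and the direct test called it (-0.44, adjusted p = 2.6e-24). BTC, betacellulin, was at -0.15, but was not called when the 20-Mb block medians were removed (-0.033, adjusted p = 0.607). ERBB3, a receptor without strong kinase activity, was the member called higher (0.13), and EPGN was the fifth called lower (-0.073). Both were named after their values were seen.

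Chemokines and cytokines went down more often than up. Of 40 members, 16 were called lower and 2 higher, with a median of -0.04, or -0.070 with block medians removed. The decreases were not particular to OE, since 21 members were lower and 5 higher in KD against parental (background 34.2% and 29.8%). In the direct test 13 were higher and 8 lower in OE than in KD (background 29.9% and 27.5%). CSF2 (ENSG00000164400, chr5:132073789-132076170), the growth factor of granulocytes and macrophages, read 6.28, 6.39 and 6.24 in parental and 5.60, 5.52 and 5.63 in libraries labelled OE. Its difference was -0.72 (standard error 0.050, adjusted p = 3.1e-13), beside -0.92 in KD. LIF, an IL6-family cytokine, was at -0.57, IL37, an anti-inflammatory member of the IL1 family, at -0.57 and CXCL1, a neutrophil chemokine, at -0.55. In KD, LIF stood at -0.70, IL37 at -0.52 and CXCL1 at -0.90. CXCL8 (ENSG00000169429, chr4:73740519-73743716), the chemokine IL8, read 12.54, 12.60 and 12.58 in parental and 12.11, 12.12 and 12.04 in libraries labelled OE, a difference of -0.48. The members called higher were CCL28 (0.41) and CCL2 (0.27), and with block medians removed the count of higher members was 5. CXCL8, CCL28 and CCL2 were named after their values were seen.

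The stretches before AREG and CXCL8 are printed because these ligands fell together with others of their lists. The AREG stretch is chr4:74444886-74445135 (plus strand) with the cyclic AMP response element TGACGTCA in capitals, and that of CXCL8 is chr4:73740319-73740568 (plus strand) with the AP-1 site TGACTCA in capitals. The outermost GENCODE start of CXCL8 lies inside its stretch. CXCL8 was chosen for printing after its values were seen.
AREG: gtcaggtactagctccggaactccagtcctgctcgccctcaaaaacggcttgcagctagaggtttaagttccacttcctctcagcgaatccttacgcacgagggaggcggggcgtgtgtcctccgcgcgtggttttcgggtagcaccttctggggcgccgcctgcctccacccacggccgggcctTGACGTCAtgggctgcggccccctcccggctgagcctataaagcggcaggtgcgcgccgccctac
CXCL8: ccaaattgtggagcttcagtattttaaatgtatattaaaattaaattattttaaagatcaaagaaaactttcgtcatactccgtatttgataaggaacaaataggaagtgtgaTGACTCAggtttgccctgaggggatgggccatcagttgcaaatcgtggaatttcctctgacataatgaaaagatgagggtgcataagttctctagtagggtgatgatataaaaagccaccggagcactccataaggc

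Searched on both strands, TGACGTCA occurs in 245 of the same 8204 stretches (2.99%) and TGACTCA in 234 (2.85%). The AP-1 site was found in 3 of 16 chemokines and cytokines. The element ends 57 bases before the AREG start site and the AP-1 site 130 bases before that of CXCL8.

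FGF ligands, receptors and binding proteins had 9 members lower and 2 higher of 19 (median -0.10). FGF13, which acts inside cells on sodium channels, was at -0.23 in OE and 0.35 in KD, FGFBP2 at -0.23 and 0.35, and FGFBP1, a carrier of FGF ligands, at -0.22 and -0.18. FGFR2, a receptor of FGF ligands, was at -0.19 and was not called without OE replicate 3 (-0.13, adjusted p = 0.0638). The WNT list had 5 members higher and 7 lower of 38. WNT9A (ENSG00000143816, chr1:227918656-227947932), a secreted WNT ligand, read 7.95, 7.92 and 7.97 in parental and 6.95, 6.87 and 6.84 in libraries labelled OE. It had the largest decrease of the list, -1.06 (standard error 0.044, adjusted p = 5.6e-19), beside -1.50 in KD. The antagonist DKK1 was at -0.52 in OE and -1.89 in KD. DKK3, of the same family, rose by 0.27, with 47.5% of its exonic bases shared, and the receptor FZD2 by 0.26.

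The TGF-beta and BMP list had 9 members higher and 6 lower of 39. CHRDL1, a BMP antagonist, rose by 0.68 and BMP4 by 0.47, while BMP2 was at -0.66. INHBA (ENSG00000122641, chr7:41667168-41705834), the activin A subunit, read 13.43, 13.48 and 13.48 in parental, 13.08, 13.07 and 13.01 in OE and 13.52, 13.51 and 13.49 in KD. Only the libraries labelled OE were low among these 9, with -0.45 against KD (adjusted p = 8.7e-21). VEGF, PDGF and angiopoietin ligands and receptors had 5 higher and 6 lower of 22. PGF, a VEGF-family ligand, was at 0.34, its receptor family member KDR at -0.84 and the coreceptor NRP1 at -0.38. In KD, PGF stood at 0.29, KDR at -1.32 and NRP1 at -0.11. The insulin-like growth factor system had 5 higher and 3 lower of 11 (median 0.049), among them the carriers IGFBP5 (0.25), IGFBP3 (0.17) and IGFBP6 (0.11) and the insulin receptor INSR (-0.14). Without a variance trend 3 of its members were called higher. Neurotrophic factors and receptors had 5 higher and 3 lower of 14. MDK, midkine, a heparin-binding growth factor of developing nerve, was at 0.56 in OE and -0.16 in KD. Its relative PTN rose in both (0.39 and 0.34), the HGF receptor MET was at -0.40 and the GDNF receptor GFRA1 at -0.41.

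Integrins had 6 members higher and 6 lower of 24, near the background. ITGA9, a receptor for tenascin and VCAM1, went from 8.42, 8.40 and 8.44 to 9.24, 9.28 and 9.27, a rise of 0.84 beside 0.80 in KD. With block medians removed ITGA9 stood at 0.79 in OE and 1.03 in KD, and OE was then called below KD (-0.24). The collagen receptor ITGA11 (ENSG00000137809, chr15:68296532-68432163) read 6.03, 5.998 and 5.86 in parental, 6.49, 6.52 and 6.52 in OE and 5.71, 5.65 and 5.63 in KD. The lines thus moved apart, with 0.85 between OE and KD (adjusted p = 6.5e-16). ITGA4, which binds fibronectin and VCAM1, was at 0.41 in OE and 0.044 in KD, and the collagen receptor ITGA2 at -0.44 and -0.51.

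Kindlins, talins and focal adhesion proteins had 7 members higher and 8 lower of 24. FERMT1 (ENSG00000101311, chr20:6074845-6123214), kindlin-1, which helps talin to activate integrins in epithelia, read 11.56, 11.55 and 11.54 in parental and 10.50, 10.56 and 10.53 in libraries labelled OE. The difference was -1.02 (standard error 0.022, adjusted p = 3.8e-26), beside -0.87 in KD. FERMT1 lies in the block from 0 to 20 Mb of chromosome 20, where the median of 89 genes was -0.12, and with block medians removed its difference was -0.91. FERMT3, the kindlin of blood cells, was at -1.02 and -1.12 in KD. BCAR1, a scaffold of focal adhesions, was at -0.23 and the tensin TNS2 at 0.24. Over the whole of chromosome 20, 46 of 366 genes were called higher and 191 lower, and BMP2, LAMA5, MMP9, TGM2, E2F1, EIF6, MRPS26, NOP56, EEF1A2 and JAG1 lie there too. All 11 of these genes were still called with block medians removed. BMP2 then stood at -0.54, JAG1 at -0.91 and EEF1A2 at 1.17.

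Other chromosomes were uneven as well. On chromosome 9, 83 of 577 genes were called higher and 256 lower, and NOL6, CA9, RPL12, ANXA1 and KLF4 lie there. On chromosome 16, the location of TRAP1, 113 of 630 were higher and 220 lower. Others leaned upward, with 241 of 795 genes higher and 152 lower on chromosome 3. Chromosome 8 had 167 higher and 125 lower of 514, and X had 142 and 91 of 493. Of 21 genes of the mitochondrial genome, 15 were higher and 0 lower. In KD, block medians went from -0.32 to -0.25 beyond 60 Mb of chromosome 9, from -0.28 to -0.21 in the first 60 Mb of chromosome 3 and up to 0.39 on chromosome 4. The KD values given in the text include these shifts unless the removal is stated.

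The LY6/uPAR family, small lipid-anchored surface proteins, had 0 members higher and 6 lower of 10. LYPD3 (ENSG00000124466, chr19:43460787-43465608), a surface protein of squamous epithelium, read 10.39, 10.42 and 10.36 in parental and 9.08, 9.12 and 9.11 in libraries labelled OE. This was the largest decrease of the comparison, -1.29, beside -0.85 in KD. LYPD1 (-0.53, and -0.27 in KD), the urokinase receptor PLAUR (-0.29 and -0.37) and LY6K (-0.19 and -0.48, with 80.8% of its exonic bases shared) were lower too. With block medians removed LY6K stood at -0.10 in OE and -0.28 in KD. Against parental, 8 members of the family were lower and 1 higher in KD (background 34.2% and 29.8%). In the direct test 6 were higher and 2 lower in OE than in KD (background 29.9% and 27.5%). Keratins had 1 member higher and 10 lower of 21 (median -0.067), beside 1 and 12 in KD (background 29.8% and 34.2%). KRT6B was at -0.75 in OE and -0.78 in KD, the basal keratin KRT14 at -0.49 and -0.70, and KRT79 at -0.45 and -0.53. KRT8 was the member called higher in OE, at 0.40 beside 0.39 in KD, with 51 annotated pseudogenes. The epithelial and squamous marker sums fell too, but they hold keratins and are not separate from these values. KRT14 was the most abundant squamous marker and KRT18 (-0.096 in OE) the most abundant epithelial one. KRT8, which rose, and CLDN4 belong to the epithelial markers as well. Tight junction and desmosome proteins had 3 higher and 6 lower of 27 (median -0.034), or 3 lower among those with a mean rlog value of at least 5. CLDN4, a claudin that seals sodium passage, was at -0.57 in OE and -0.057 in KD.

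The immunoglobulin-family adhesion molecules had 11 members higher and 6 lower of 30 (median 0.022). NCAM1 (ENSG00000149294, chr11:112961275-113278436), the neural cell adhesion molecule, read 6.35, 6.38 and 6.39 in parental, 5.98, 5.89 and 5.89 in OE and 7.77, 7.71 and 7.82 in KD. L1CAM (ENSG00000198910, chrX:153861514-153886173), which guides axons, read 10.76, 10.73 and 10.74, then 11.06, 11.08 and 11.12 and then 9.78, 9.83 and 9.82. NCAM1 was thus lower in OE and higher in KD, and L1CAM the reverse, and the tests of OE against KD gave -1.84 (adjusted p = 1.2e-25) and 1.27 (adjusted p = 1.5e-28). BCAM, a laminin receptor, was at 0.68 in OE and 0.066 in KD, and the synaptic adhesion molecule CADM3, with 36.6% shared exonic bases, at 0.44 and 0.016. Classical cadherins and relatives had 3 higher and 2 lower of 18 (median 0.02), and protocadherins 4 and 3 of 14. CDH13, a cadherin anchored by a lipid, was at -0.10 and was not called with block medians removed (-0.031, adjusted p = 0.183). CDH8 was at -0.25 in OE and 0.39 in KD, and PCDH17 at -0.38 and 1.27. Among the members called higher were CDH15 (0.24), CDH10 (0.19, and 2.94 in KD) and PCDH7 (0.34, and 0.62 in KD).

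Axon guidance ligands and receptors had 16 members higher and 21 lower of 62. SEMA3G (ENSG00000010319, chr3:52433035-52445103), a secreted semaphorin, read 7.57, 7.46 and 7.48 in parental, 8.42, 8.47 and 8.38 in OE and 7.16, 7.07 and 7.18 in KD. The direct test put OE above KD by 1.29 (standard error 0.043, adjusted p = 3.5e-22), or by 1.01 with block medians removed. That removal moved KD minus parental from -0.36 to -0.092, which was not called. The ephrin receptor EPHA3 rose by 0.63 in OE and 1.67 in KD, the ephrin EFNA3 (43.9% shared exonic bases) by 0.57 and 0.38, and ROBO4, a receptor of vessels, was at -0.69 and -0.63.

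Shifts of the translation genes were mostly small. Of 69 cytosolic ribosomal proteins, 48 were called higher and 3 lower, with a median difference of 0.055. Ribosomal protein genes are among the most abundant, and of all protein-coding genes with a mean rlog value of at least 13, 36.4% were called higher. After quantile normalization the median was 0.031 and 34 members were higher, and 29 were higher without a variance trend. Nearly all of them have pseudogenes, 66 of 69 with 2 or more. In KD against parental 37 members were higher and 19 lower (background 29.8% and 34.2%). In the direct test 23 were higher and 27 lower in OE than in KD (background 29.9% and 27.5%). RPL12 (ENSG00000197958, chr9:127447674-127451406), of the large subunit and with 50 pseudogenes, read 15.14, 15.13 and 15.08 in parental and 15.23, 15.19 and 15.26 in libraries labelled OE. It was up by 0.11 in OE and at -0.11 in KD, but the direction in KD turns with block medians removed, where RPL12 stood at 0.20 in OE and 0.21 in KD. RPS29 was up by 0.13 in OE and 0.47 in KD, RPL30 by 0.11 and 0.14, and RPS18 by 0.099 and 0.14. The removal lowered RPL30 to 0.073 in OE and RPS18 to 0.078 in KD.

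Ribosome biogenesis factors went the other way. Of 52 members, 32 were called lower and 3 higher, with a median difference of -0.089. Among protein-coding genes with a mean rlog value of at least 10, 35.1% were lower and 24.3% higher. NOL6 (ENSG00000165271, chr9:33461353-33473930), a nucleolar factor of the small subunit, read 13.20, 13.17 and 13.20 in parental and 12.85, 12.87 and 12.90 in libraries labelled OE. The groups did not overlap, and the difference was -0.32 (standard error 0.016, adjusted p = 1.1e-16), or -0.24 with block medians removed. NOP56, a core protein of box C/D particles that methylate ribosomal RNA, was at -0.31, or at -0.20 with them removed. LYAR was at -0.24, and POLR1G, of RNA polymerase I, at -0.23 with 49.8% of its exonic bases shared. In KD against parental 40 members were lower and 5 higher (background 34.2% and 29.8%), and in the direct test 30 were higher and 6 lower in OE than in KD (background 29.9% and 27.5%).

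Initiation factors had 10 members higher and 20 lower of 48 (median -0.036), mitochondrial ribosomal proteins 2 and 17 of 61 (6 higher with block medians removed), elongation and release factors 3 and 4 of 13, and aminoacyl-tRNA synthetases 8 and 10 of 36. EIF4A2, an RNA helicase of initiation, was at 0.20 in OE and 0.54 in KD (0.33 with block medians removed), the scaffold EIF4G1 at -0.18, EIF6, which keeps the subunits apart, at -0.23 (-0.14 with them removed) and EIF5A2 at -0.15. MRPS26 was at -0.31, or -0.20 with them removed, and MRPL36 at -0.23. EEF1A2 (ENSG00000101210, chr20:63488013-63499239), the form of elongation factor 1A known from nerve and muscle, read 9.46, 9.47 and 9.55 in parental, 10.52, 10.59 and 10.62 in OE and 9.88, 9.82 and 9.91 in KD. It rose by 1.08 (standard error 0.031, adjusted p = 5.0e-23), far more than any other member of these lists, and lies in the block of chromosome 20 beyond 60 Mb where the median of 52 genes was -0.11. Among synthetases, the phenylalanine enzyme FARSA was at -0.13 in OE and 0.0081 in KD.

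**Figure D4:**
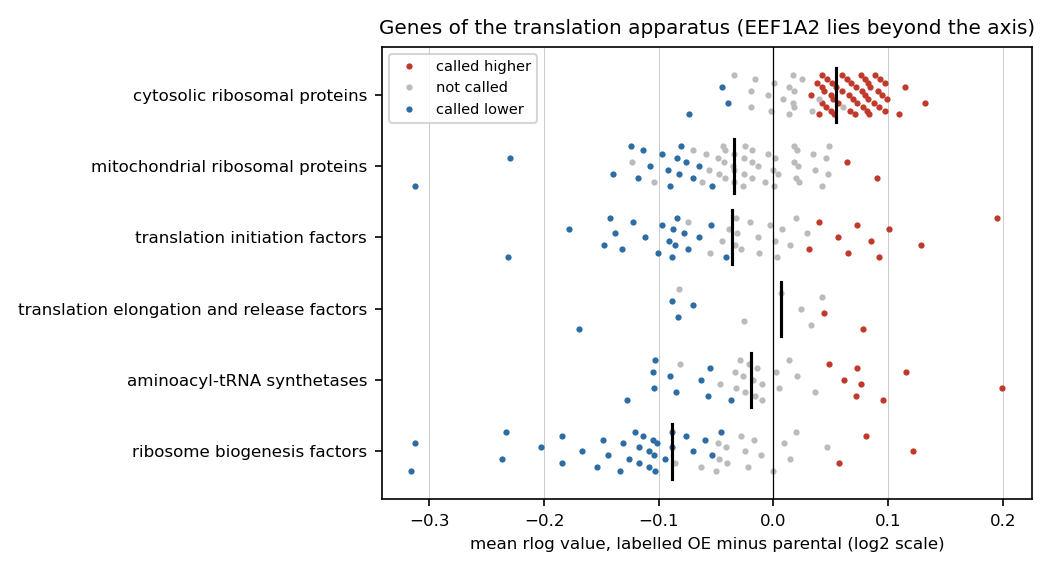
Difference in mean rlog value (log2 scale) between libraries labelled OE and parental for each gene of the translation lists, with a black bar at each list median and colour for the call. Cytosolic ribosomal proteins lie mostly right of 0, and ribosome biogenesis factors mostly left of it.

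To ask which changes were particular to the line labelled OE, a gene was counted as apart in OE when OE against parental and OE against KD were both called in the same direction and all 3 libraries labelled OE lay beyond all 6 others. There were 2338 such genes, 1205 higher and 1133 lower. Among protein-coding genes 6.97% were apart upward and 7.0% downward. KD against parental was called the other way in 884 of the 2338, the same way in 415 and not at all in 1039. Most were small again, and only 36 higher and 4 lower genes had a smaller difference over 0.5 in size. Ordered by the smaller of the differences, the leading increases were those of A2M, SGCD, LMCD1-AS1, SEMA3G, PASD1, VANGL2, EEF1A2, DCT, COL11A1 and PTPRZ1. The leading decreases were those of MAST4, LHX8, USP43, CLDN4, CADPS2, BCL2A1, ATP6V0A4, CDS1, BRINP2 and JAG1. With block medians removed CDS1, on chromosome 4, was at -0.43 against parental but only -0.25 against KD, smaller in size than the other 9 decreases.

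SGCD (ENSG00000170624, chr5:155870344-156767788), delta-sarcoglycan of the dystrophin complex, read 5.11, 4.98 and 5.15 in parental, 5.94, 6.13 and 5.97 in OE and 4.92, 4.93 and 4.93 in KD. PTPRZ1 (ENSG00000106278, chr7:121873089-122062036), a receptor phosphatase of nerve and glia that binds pleiotrophin and midkine, read 10.51, 10.50 and 10.47, then 11.16, 11.21 and 11.14 and then 9.94, 9.96 and 9.94. Its 3 groups lay fully apart, with OE above KD by 1.22 (adjusted p = 3.0e-28). VANGL2, of planar cell polarity, rose by 0.81 in OE and was at -0.20 in KD. DCT, an enzyme of melanin synthesis, rose by 0.70 in OE and was at -0.073 in KD (-0.16 with block medians removed), and the Schwann cell and melanocyte marker sums rose in OE as well. PASD1, a testis antigen, rose by 0.87.

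On the lower side MAST4 (ENSG00000069020, chr5:66596380-67169593), a microtubule-associated kinase, read 7.37, 7.47 and 7.38 in parental, 6.49, 6.40 and 6.51 in OE and 7.36, 7.34 and 7.37 in KD. The libraries labelled KD stayed near parental, and OE minus KD was -0.89 (standard error 0.044, adjusted p = 1.8e-17). LHX8 (ENSG00000162624, chr1:75128434-75161533), a homeobox factor of forebrain neurons, read 8.42, 8.38 and 8.43, then 7.89, 7.79 and 7.72 and then 8.86, 8.91 and 8.84. It fell in OE and rose in KD, as did CADPS2, of vesicle release (-0.50 and 0.38), and USP43 (-0.57 and 0.29). BCL2A1, an inhibitor of apoptosis, was at -0.50 in OE and 0.17 in KD, and ATP6V0A4, a proton pump subunit, at -0.60 and -0.11. JAG1 (ENSG00000101384, chr20:10637684-10673999) read 11.59, 11.57 and 11.58 in parental, 10.57, 10.58 and 10.51 in OE and 11.02, 11.04 and 11.02 in KD, so both lines were low and OE lowest.

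**Figure D5:**
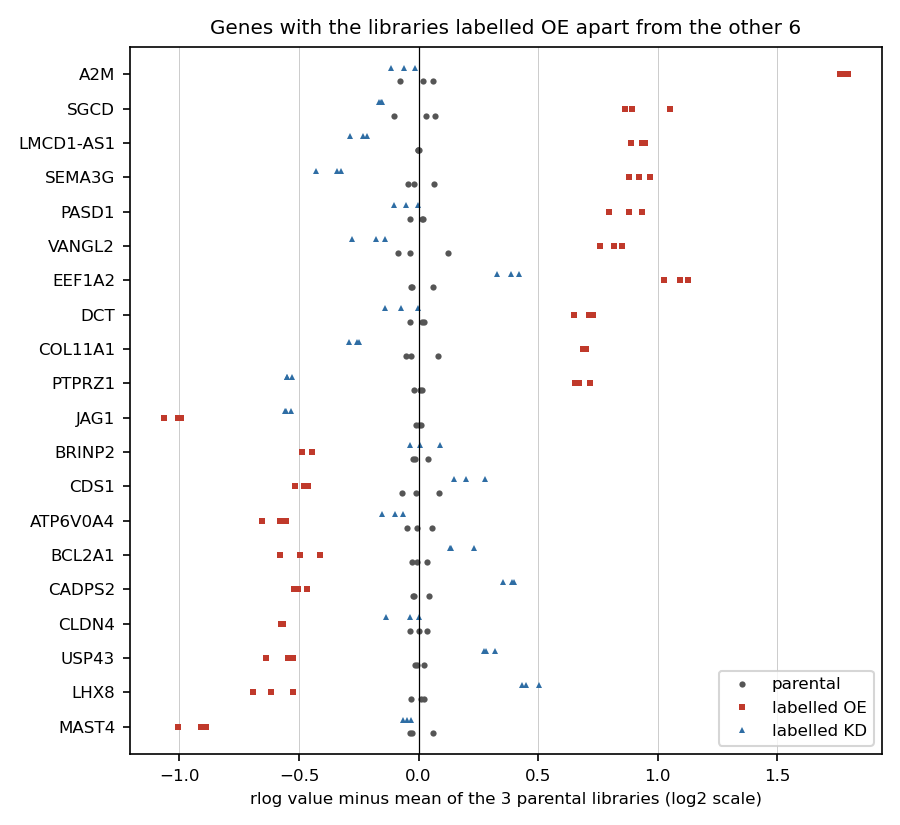
Change in rlog value (log2 scale) from the parental mean, in each of the 9 libraries, for the 10 leading genes in each direction that were apart in the line labelled OE. The 3 libraries labelled OE lie beyond all 6 others for every gene shown, as the definition of apart requires.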

How the data were processed

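The authors sequenced 9 libraries from paired ends, used cutadapt for trimming, HISAT2 for mapping to GRCh38 and featureCounts for counts per gene, left out genes with fewer than 10 reads in total, and deposited rlog values (log2) from DESeq2. Versions are not given in the sources used here. A further 3 columns of the deposited table held no values. The values were used as deposited. Differences of group means were fitted to all 9 libraries with limma 3.58.1 in R 4.3.3 (moderated test, variance trended by level). P-values were adjusted by Benjamini-Hochberg over 22290 genes, and genes were called under 0.05. The rlog values do not show the reads of each library, so precision rests on the spread of 3 libraries a group. Tables were made with pandas 2.3.3 and numpy 2.4.6, and positions, shared exonic bases and pseudogenes come from GENCODE 44. Start-site sequences came from RefSeq.

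Named genes were the 15 largest called changes each way with groups that did not overlap, the 10 largest each way apart in OE, up to 4 called members of each of 43 lists with the largest difference, TRAP1 and the markers. The members and lists were chosen with earlier results of these data known. Alternatives were no variance trend, 6 libraries only, a minimum mean rlog value of 5, equal library medians, quantile normalization, replicate block, removal of 20-Mb block medians and leaving out each library. Some named genes and 1 list are not reported here. No set test was run.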

Additional observations from a re-analysis of the deposited data

How the results depend on the processing

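Counts of called genes stayed within 1.5 times their value under every alternative run. OE against parental called 6857 to 8352 genes, OE against KD 9171 to 11665, and 1968 to 2357 genes were apart in OE. Leaving out 1 library gave 6857 to 7325 genes for OE against parental. With the replicate block, 7854 genes were called for OE against parental (3790 higher and 4064 lower), 10623 for OE against KD and 2332 apart. Deviations of libraries with the same replicate number had correlations from -0.071 to 0.14, so the main test is not paired.

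Of 250 tests of named genes, 249 were called. Under some alternative 6 lost the call, all in OE against parental, those of ANXA13, BTC, CDH13, FGFR2, HOXA11 and HOXA2. BTC, CDH13 and FGFR2 are described with their families. ANXA13 (0.092) lost its call without any 1 of the 6 OE and parental libraries (0.081 to 0.10) and after quantile normalization (0.083). HOXA11 (0.13) lost it without OE replicate 1 (0.12), without parental replicate 2 (0.11) and with block medians removed (0.11), and HOXA2 (-0.14) without OE replicate 1 (-0.13) and without parental replicate 3 (-0.10). TRAP1 gained it with block medians removed. No direction reversed for a called gene among the 250 tests. They did not hold every comparison with KD, and removing block medians changed some of those. The call of OE against KD was lost for CA9, ABCG2, BTC, EIF6, KLF4, MMP9, NOL6, RPL12 and CDH13, among others. OE minus KD turned from 0.14 to -0.096 for CACNA1B, called both times. It turned from -0.35 to 0.096 for ABCG2 and from -0.33 to 0.075 for BTC. KD minus parental turned for RPL12, CDS1 and BTC, called both times (BTC from 0.18 to -0.11). Of 1378 counts of list members, 47 moved by more than 1.5 times.

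The counts of members called higher that moved were as follows. Mitochondrial ribosomal proteins went from 2 to 1 without parental replicate 1, 4 without parental replicate 2, 5 after quantile normalization and 6 with block medians removed. The EGF family went from 1 to 2 with block medians removed and without a variance trend, and the FGF family from 2 to 1 without OE replicate 3 and without parental replicate 3. Without a variance trend the insulin-like growth factor system went from 5 to 3, ER chaperones from 8 to 5 and cytosolic ribosomal proteins from 48 to 29. Chemokines went from 2 to 5 with block medians removed, ribosome biogenesis factors from 3 to 5 with equal library medians, HOX genes from 3 to 5 without OE replicate 3, potassium channels from 10 to 6 without parental replicate 2, and calcium channels from 6 to 2 at a mean rlog value of at least 5. ATF4 targets went from 1 to 2 without OE replicate 1, with equal medians and with block medians removed.

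Among counts of lower members, cytosolic ribosomal proteins went from 3 to 1 without OE replicate 2 or parental replicate 2, 6 without OE replicate 3 and 0 when the variance had no trend. ER chaperones went from 10 to 6 without parental replicate 1, after quantile normalization and with block medians removed, and cadherins from 2 to 1 with block medians removed. Cholesterol genes went from 2 to 1 in 7 settings, among them without OE replicate 2, parental replicate 2 and parental replicate 3. Calcium channels went from 2 to 1 without OE replicate 1 or 3 or parental replicate 2 or 3 and with block medians removed. HOX genes went from 1 to 0 without OE replicate 1 and without parental replicate 3, and potassium channels from 11 to 7 without OE replicate 1. Histone genes went from 3 to 1 without a variance trend, carbonic anhydrases from 0 to 1 there and with block medians removed, and at a mean rlog value of at least 5 tight junction proteins went from 6 to 3 and small leucine-rich proteins from 1 to 0.

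Some list medians moved too, and those outside 1.5 times are left out except for cytosolic ribosomal proteins and chemokines, where both values stand. The library scalings moved the median of all genes by less than 0.01. Depth is unknown from rlog values, and genes with few reads are shrunken most.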

Other observations

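Counts for signalling and growth lists outside the groups above follow, and no list was tested. Targets of ATF4, the factor of amino acid and ER stress, had 1 member higher and 10 lower of 18. ATF3, itself a stress factor, had a difference of -0.44, the phosphatase subunit PPP1R15A -0.33, the leucine-sensing SESN2 -0.30 and the amino acid transporter SLC7A5 -0.29. YAP, TAZ and TEAD with their targets had 3 higher and 10 lower of 18 (median -0.079), with CCN2 at -0.56, the scaffold AMOTL2 at -0.37, CCN1 at -0.36 and the receptor kinase AXL at -0.35. Cell cycle genes had 11 higher and 16 lower of 34, among them E2F1 (-0.54), CDKN1A (-0.48), CCND1 (-0.36) and CCNE2 (-0.37). Immediate early and MAPK feedback genes had 9 higher and 10 lower of 27, with SPRY1 at 0.56, FOS at 0.46, FOSL1 at -0.52 and EGR2 at -0.53. Interferon-stimulated genes had 4 higher and 7 lower of 23, with IFITM2 at 0.42 and IFI44 at -0.39. ER chaperones had 8 higher and 10 lower of 24, with HSP90B1 at 0.15 and SYVN1 at -0.17.

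Cholesterol synthesis and uptake genes had 8 members higher and 2 lower of 21, among them INSIG1 (0.29) and STARD4 (0.21). Myosins had 7 higher and 11 lower of 39, with the nonmuscle chains MYH10 at 0.38 and MYH9 at -0.30. ABC transporters had 9 and 10 of 42, with ABCA8 at 1.36, ABCB4 at 0.94, ABCB1 at -0.40 and ABCG2 at -0.31. HOX genes had 3 higher and 1 lower of 21 (median 0.048), and carbonic anhydrases 2 and 0 of 10 (median 0.026), namely CA9 and CA5B (0.12).

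A further 10 lists were chosen after the values were seen. Notch ligands, receptors and modifiers had 6 members higher and 9 lower of 24, with MFNG at -0.70 and DNER at -0.62. SOX factors had 5 and 1 of 9 (median 0.057), with SOX8 at 0.47 in OE and -0.31 in KD, and SOX6 at 0.30 and -0.72. KLF and SP factors had 4 and 5 of 23, with KLF4 at -0.69. S100 proteins had 2 and 5 of 12 (median -0.041), with S100A2 at -0.67 and S100B at 0.29. Histone genes, whose mRNAs often lack a polyA tail, had 10 and 3 of 60 (median 0.014). Voltage-gated calcium channels had 6 and 2 of 20, of which 2 were higher with a mean rlog value of at least 5, with CACNA1C at 0.56 in OE and 0.029 in KD, and potassium channels 10 and 11 of 66. Annexins had 4 and 3 of 12, with ANXA6 at 0.68 and ANXA1 at 0.098 in OE and -0.48 in KD (-0.22 with block medians removed). Cathepsins had 4 and 4 of 13, with CTSK at 0.997 in OE and 1.99 in KD. Small leucine-rich and olfactomedin secreted proteins had 2 and 1 of 8 (median 0.049), with OLFML3 at 0.88.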
